A study of Homo sapiens with 52 samples.

Results

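SUM159PT cells that carried a non-targeting shRNA (shNT) were compared with SUM159PT cells that were transfected with a non-targeting siRNA (siNT). The comparison was defined by the sample labels alone and took 6 of the 52 bulk RNA-seq samples of the dataset, 3 per group. SUM159PT is an established triple-negative breast cancer cell line of the claudin-low subtype. The dataset as a whole knocks down NRP1, a co-receptor for semaphorins and VEGF, by siRNA and by shRNA in 3 such cell lines, and the NT controls are the samples in which NRP1 was left intact.

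The siNT samples received the Silencer Select Negative Control No. 1 siRNA at 20 nM by reverse transfection with the lipid reagent Lipofectamine RNAiMAX, and their RNA was collected after 72 hrs. For the shNT samples, a non-targeting hairpin in the pLKO.1 vector was packaged as lentivirus in HEK293T cells, transduced cells were selected with puromycin and reseeded, and RNA was collected after 48 hrs. The shRNA replicates were consecutive passages of transduced and selected cells, and for the siRNA replicates the methods state only that they were independent, so that the p-values below may measure in part the spread between passages of 1 culture. The carrier, the antibiotic, the non-targeting sequence and the time of harvest all changed together between the groups and cannot be told apart.

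A cell can meet foreign RNA and its carrier through sensors in endosomes and the cytosol, which signal to NF-kB and to interferon regulatory factors. NF-kB drives cytokines such as IL6 and CXCL8 and its own inhibitors TNFAIP3 and NFKBIA, whereas interferon signalling acts through the interferon-stimulated response element (ISRE) and raises antiviral genes and the MHC class I pathway that presents peptides to T cells. The rate of division is read from other genes, among them the DNA replication genes of S phase and the mitotic genes of G2/M, many of which carry the cell cycle genes homology region (CHR) close to their start.

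Expected counts added up to between 39908435 and 62014725 per sample, and levels are given below as CPM, the count of a gene scaled to the TMM-normalised library size. The siNT samples were the more variable group. The median SD of a gene on the log2 scale was 0.295 in siNT and 0.195 in shNT, and the 10 most abundant genes took 12.5% of the counts of siNT replicate 2 against 7.29 to 10.3% in the other 5 samples. The markers went with the claudin-low label. VIM, the intermediate filament of mesenchymal cells, was at 4168, 4055 and 4382 CPM in siNT and 6792, 5089 and 8145 CPM in shNT, and CDH1 (E-cadherin) was at 1.08, 0.358 and 0.576 against 0.0206, 0.161 and 0.0330 CPM (log2 fold change -3.20 ± 0.76 (SE), adjusted p = 0.0143). The claudin gene CLDN3 and the oestrogen receptor ESR1 had at most 5 counts in any of the 6 samples. The progesterone receptor PGR had at most 1 count. ERBB2, the gene of HER2, was at 101, 107 and 111 CPM in siNT and 106, 119 and 86.2 CPM in shNT. CLDN4 was at 2.29, 2.20 and 2.76 against 1.42, 1.79 and 1.47 CPM and CLDN7 was lower still, so that the level of these claudins was low and not 0. Of 4 genes typical of the HEK293T packaging cells, PAX2, NEFM and SOX2 had 0 counts throughout and LIN28B had 0 counts in shNT and at most 5 in siNT. NRP1 itself was at 253, 150.5 and 237 CPM in siNT and 272, 237 and 203 CPM in shNT, ranges that overlapped (log2 fold change 0.15 ± 0.29 (SE), adjusted p = 0.754). In bulk samples, fewer cells that express a gene and less of its RNA per cell cannot be told apart.

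Of 20067 genes tested, 2890 (14.4%) differed between shNT and siNT at an adjusted p under 0.05 in edgeR's quasi-likelihood test. In shNT 1195 genes (5.96%) were higher and 1695 (8.45%) were lower. This excess of lower genes depended on the scaling, since with library totals in place of TMM factors 1426 were higher and 1404 lower. The lower genes had the larger changes, with a median change of 1.56 log2 units in size against 1.03 for the higher genes, and 585 of them differed by more than 4-fold against 108 of the higher ones. In 7395 genes (36.9%) the 3 values of one group all lay above those of the other, among them 1189 of the 1195 higher and 1626 of the 1695 lower genes. The number of calls depended on single samples. It was 463 without shNT replicate 3, 1065 without shNT replicate 1, 1106 without siNT replicate 1 and 1740 without siNT replicate 2, while it was 2389 without shNT replicate 2 and 3398 without siNT replicate 3. Of the 2890 genes, 0 passed in the other direction in these 6 fits.

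Cytokines were among the 12 genes with the largest decrease in shNT, for which no overlap of the groups was a condition. CSF3, the granulocyte colony-stimulating factor, was at 23.3, 195 and 1.60 CPM in siNT and at 0.185, 0.201 and 0.0330 CPM in shNT (log2 fold change -9.05 ± 1.78 (SE), adjusted p = 0.00737). All siNT values lay above all shNT values, and the siNT samples themselves spread widely, with replicate 2 highest and replicate 3 lowest. S100A8, a subunit of calprotectin, fell from 316, 569 and 149.7 CPM to 6.17, 17.4 and 2.18 CPM (log2 fold change -5.33 ± 1.17 (SE), adjusted p = 0.0113). SAA1, an acute phase protein, fell from 126, 477 and 53.7 CPM to 7.53, 12.2 and 1.77 CPM (log2 fold change -4.94 ± 0.96 (SE), adjusted p = 0.0068). For both genes siNT replicate 2 was again the highest sample, and the lowest siNT sample was several times above the highest shNT sample. IL1A, a cytokine released by damaged cells, was at 64.5, 32.0 and 12.0 CPM in siNT and 2.04, 0.766 and 0.710 CPM in shNT (log2 fold change -4.95 ± 1.08 (SE), adjusted p = 0.0112).

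FPR1, the receptor for formylated bacterial peptides, was at 8.79, 23.5 and 1.93 CPM in siNT and 0.391, 0.101 and 0.0330 CPM in shNT (log2 fold change -6.05 ± 0.90 (SE), adjusted p = 0.00237). IL34, a ligand of the CSF1 receptor, was at 7.74, 10.3 and 4.63 against 0.123, 0.423 and 0.0991 CPM (log2 fold change -5.13 ± 0.84 (SE), adjusted p = 0.00324). The 12 genes also held CHRNA1, a subunit of the muscle acetylcholine receptor, at 20.1, 9.61 and 17.1 against 0.309, 0.242 and 0 CPM, and ASB2, a subunit of a ubiquitin ligase, at 14.8, 17.5 and 13.9 against 0.679, 0.383 and 0.0330 CPM. The 3 values of ASB2 in siNT were close together, unlike those of the cytokines. The other 4 of these 12 genes were TCIM, PDZK1IP1, PLEK and POU2F2, with log2 fold changes of -8.29, -5.62, -5.33 and -5.00. Levels in shNT were so low for several of these genes that the size of the fitted change depends on the prior count. SAA1, FPR1, IL34, CHRNA1, ASB2 and TCIM kept an adjusted p under 0.05 with any 1 of the 6 samples left out, whereas CSF3, S100A8, IL1A, PDZK1IP1 and POU2F2 did not without shNT replicate 3 and PLEK without shNT replicate 3, shNT replicate 1 or siNT replicate 2.

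**Figure D1:**
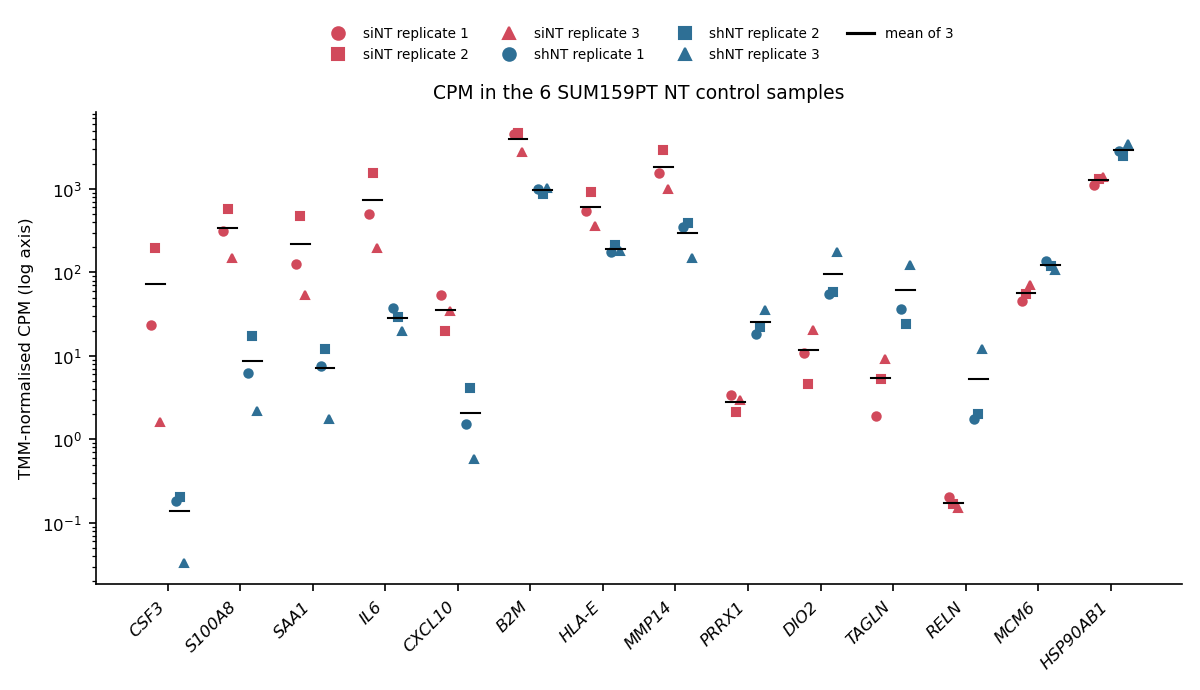
TMM-normalised CPM on a log axis for 14 genes named in the text, in siNT (red) and shNT (blue). Each symbol is 1 of the 3 replicates and the black bar is their mean. The groups do not overlap for these 14 genes, as for nearly all genes that passed, and siNT replicate 2 (red square) is the highest sample for CSF3, S100A8, SAA1 and IL6.

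Of the 31 NF-kB targets and cytokines listed, 29 could be tested and 23 fell in shNT, beside 8.45% of all genes, with a median log2 fold change of -2.08 (all genes tested, -0.03). None rose by edgeR, at an unadjusted p under 0.05 or by DESeq2, whereas 1 rose by edgeR without a filter on low counts. IL6 was at 500.0, 1546 and 198 CPM in siNT and 37.4, 29.1 and 19.9 CPM in shNT (log2 fold change -4.70 ± 0.82 (SE), adjusted p = 0.00453). TNF was low in both groups, at 2.62, 9.25 and 0.902 against 0.165, 0.161 and 0.0496 CPM (log2 fold change -5.09 ± 0.99 (SE), adjusted p = 0.00652). The groups did not overlap for either cytokine, although the siNT values of IL6 spread by several fold. ICAM1, an adhesion molecule for leukocytes, was at 185, 352 and 114 against 61.6, 59.9 and 39.4 CPM (log2 fold change -2.01 ± 0.36 (SE), adjusted p = 0.00461), and PTGS2, the inducible cyclooxygenase, at 7.78, 19.8 and 2.03 against 0.720, 1.09 and 1.11 CPM (log2 fold change -3.34 ± 0.64 (SE), adjusted p = 0.00629). TNFAIP3, which ends NF-kB signalling, was at 62.4, 89.2 and 40.7 CPM in siNT and fell to 16.7, 19.7 and 20.1 CPM in shNT (log2 fold change -1.77 ± 0.32 (SE), adjusted p = 0.00453). The 6 members that did not pass were BIRC3, TNFAIP2, CCL2, IL11, CXCL3 and NFKB1. NFKB1, the p105 and p50 subunit, was at 67.6, 83.5 and 84.2 CPM in siNT and 78.1, 68.6 and 71.0 CPM in shNT, values that overlapped. IL11 was the 1 member with a positive value (1.85, adjusted p = 0.209). The number that fell was 6 without shNT replicate 3, 12 without shNT replicate 1 and 14 without siNT replicate 2. IL6, TNF, ICAM1, PTGS2 and TNFAIP3 kept an adjusted p under 0.05 with any 1 of the 6 samples left out.

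RefSeq promoters (GRCh38.p14, 250 bases before to 50 after the start) were matched to 22 of the 29 members. The kappaB motif (GGGA, any base, then TTTCC), searched on both strands, was present in 8 of these 22 (36.4%) and in 158 of all 27305 promoters (0.579%). Of the 17 matched members that fell, 6 held it. The list was made of NF-kB targets, so a share above that of all promoters does not bear on the change in shNT. Whether the motif went with the fall was not tested. The 250 bases upstream of IL6 (chr7:22726950-22727199, plus strand) and TNFAIP3 (chr6:137867009-137867258, plus strand) are shown as a cytokine and an inhibitor of the pathway that fell together, with the motif in capitals. It starts 73 bases before the start of IL6 and, on the opposite strand, 67 bases before that of TNFAIP3.
IL6: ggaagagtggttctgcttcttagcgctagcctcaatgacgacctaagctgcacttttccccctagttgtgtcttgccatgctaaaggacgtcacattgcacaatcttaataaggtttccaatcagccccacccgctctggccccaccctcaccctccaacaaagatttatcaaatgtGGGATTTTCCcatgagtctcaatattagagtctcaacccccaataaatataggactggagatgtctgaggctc
TNFAIP3: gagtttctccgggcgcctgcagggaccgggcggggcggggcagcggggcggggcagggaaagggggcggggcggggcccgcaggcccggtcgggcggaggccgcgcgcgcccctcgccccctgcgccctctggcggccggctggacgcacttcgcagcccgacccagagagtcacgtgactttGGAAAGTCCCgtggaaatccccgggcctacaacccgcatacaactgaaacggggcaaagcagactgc

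Most MHC class I genes fell. All 17 genes listed for MHC class I and antigen processing could be tested. Of these, 13 fell, beside 8.45% of all genes, and none rose, with a median log2 fold change of -1.22. B2M, the shared light chain of class I molecules, was at 4582, 4635 and 2753 CPM in siNT and 1003, 872 and 1036 CPM in shNT (log2 fold change -2.04 ± 0.35 (SE), adjusted p = 0.0038). HLA-B, a classical heavy chain, was at 1069.5, 2370.1 and 751 against 376, 447 and 425 CPM (log2 fold change -1.75 ± 0.38 (SE), adjusted p = 0.0103), and HLA-E, the ligand of NKG2A on natural killer cells, at 551, 932 and 362 against 177, 213 and 182 CPM (log2 fold change -1.69 ± 0.31 (SE), adjusted p = 0.00502). The 3 shNT values of each gene lay close together and below all siNT values. TAPBP (tapasin), which loads peptides, fell from 481, 557 and 357 CPM to 149.7, 169.9 and 98.0 CPM (log2 fold change -1.74 ± 0.27 (SE), adjusted p = 0.00237). TAP1, a subunit of the peptide transporter, fell from 226, 365 and 208 CPM to 103, 118 and 114 CPM (log2 fold change -1.26 ± 0.24 (SE), adjusted p = 0.00542). HLA genes are near-identical in sequence, so that reads shared among them were divided by the quantification and the split between single HLA genes is uncertain. The number of MHC class I genes that fell was 4 without shNT replicate 3, 6 without shNT replicate 1 and 7 without siNT replicate 2. B2M, HLA-E, TAPBP and TAP1 kept an adjusted p under 0.05 with any 1 of the 6 samples left out, whereas HLA-B did not without shNT replicate 3.

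Of 43 interferon-stimulated genes tested, 14 fell, beside 8.45% of all genes. None rose by edgeR (1 by DESeq2, without siNT replicate 3 and at an unadjusted p under 0.05). The median log2 fold change was -0.92, and 39 of the 43 had a negative value. CXCL10, a chemokine for T cells, was at 52.95, 19.8 and 34.8 CPM in siNT and 1.54, 4.15 and 0.578 CPM in shNT (log2 fold change -4.11 ± 0.87 (SE), adjusted p = 0.00994). IFI44 was at 187, 63.6 and 120.1 CPM in siNT and at 35.9, 34.5 and 27.0 CPM in shNT (log2 fold change -1.93 ± 0.33 (SE), adjusted p = 0.0038). For CXCL10 and IFI44 the highest siNT sample was replicate 1 and the lowest replicate 2, an order unlike that of CSF3, IL6 and TNF. IFI27, a mitochondrial protein, was at 106, 102 and 86.8 against 39.8, 42.9 and 32.9 CPM (log2 fold change -1.35 ± 0.27 (SE), adjusted p = 0.00669). IRF1, a transcription factor of the pathway, was at 155, 205 and 153 against 74.3, 85.2 and 53.6 CPM (log2 fold change -1.27 ± 0.25 (SE), adjusted p = 0.00674), and LGALS3BP, a secreted glycoprotein, at 1424, 1807 and 1077 against 624, 695 and 496 CPM (log2 fold change -1.25 ± 0.22 (SE), adjusted p = 0.00419). Groups did not overlap for these 5 genes. Members that fell numbered 4 without shNT replicate 3, 6 without shNT replicate 1 and 7 without siNT replicate 1. IFI44, IFI27, IRF1 and LGALS3BP kept an adjusted p under 0.05 with any 1 of the 6 samples left out, whereas CXCL10 did not without shNT replicate 3.

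Of 21 sensors and adaptors of foreign RNA and DNA tested, none rose and 4 fell, beside 8.45% of all genes. These were RIGI, the sensor of RNA ends, at 81.0, 25.4 and 47.8 against 20.0, 23.3 and 15.1 CPM (log2 fold change -1.40 ± 0.41 (SE), adjusted p = 0.0327), its relative DHX58 at 24.3, 34.1 and 18.7 against 9.38, 14.3 and 7.72 CPM (log2 fold change -1.30 ± 0.39 (SE), adjusted p = 0.0345), the kinase IKBKE (log2 fold change -1.71 ± 0.36 (SE), adjusted p = 0.00838) and the cytidine deaminase APOBEC3G (log2 fold change -1.70 ± 0.52 (SE), adjusted p = 0.0391). Every siNT value of RIGI was above every shNT value, by a small margin in siNT replicate 2. The 4 became 0 without shNT replicate 3 and 1 without shNT replicate 1 and without siNT replicate 1, and 8 with DESeq2.

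The ISRE motif (GAAA, any pair of bases, then GAAA), on either strand, was in 23 of the 33 interferon-stimulated genes with a RefSeq promoter (69.7%), in 9 of 14 MHC class I genes (64.3%) and in 996 of all 27305 promoters (3.65%). Among the matched members that fell, 10 of 12 interferon-stimulated genes and 6 of 10 MHC class I genes held it. Both lists hold genes that interferon raises, so their shares above that of all promoters do not bear on the change in shNT. Whether the ISRE went with the fall was not tested. The promoters of B2M (chr15:44711267-44711516, plus strand) and IFI27 (chr14:94110486-94110735, plus strand) are shown because they carry this motif in both gene groups. Capitals mark the ISRE matches of both genes, which overlap in B2M, and the kappaB match on the opposite strand of B2M, 125 bases before its start.
B2M: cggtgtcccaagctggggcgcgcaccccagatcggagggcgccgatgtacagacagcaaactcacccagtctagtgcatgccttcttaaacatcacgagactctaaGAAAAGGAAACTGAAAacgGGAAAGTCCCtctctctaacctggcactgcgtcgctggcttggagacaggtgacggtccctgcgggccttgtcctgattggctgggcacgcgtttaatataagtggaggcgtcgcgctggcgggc
IFI27: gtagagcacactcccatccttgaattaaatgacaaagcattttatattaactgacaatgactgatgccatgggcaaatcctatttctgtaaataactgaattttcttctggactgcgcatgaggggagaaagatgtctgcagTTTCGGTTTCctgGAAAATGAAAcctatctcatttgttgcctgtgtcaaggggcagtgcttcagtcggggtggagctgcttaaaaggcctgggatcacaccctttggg

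Genes of the extracellular matrix and of its turnover were among those that fell. Of 35 genes for collagens and matrix, 12 fell, beside 8.45% of all genes, and none rose (median -0.75). FN1 (fibronectin) was at 5978, 4284 and 3538 CPM in siNT and 1107, 1417 and 1442 CPM in shNT (log2 fold change -1.80 ± 0.31 (SE), adjusted p = 0.0038). LOX, which crosslinks collagen, fell from 15.0, 5.62 and 6.74 CPM to 0.802, 1.31 and 0.958 CPM (log2 fold change -3.15 ± 0.41 (SE), adjusted p = 0.00135). Both genes were highest in siNT replicate 1, not replicate 2, and the groups did not overlap. Of 21 matrix metalloproteinases and plasminogen genes, 9 fell and 1 rose (median -0.79). MMP14, the membrane-bound collagenase, was at 1561, 2966 and 992 against 353, 394 and 149.8 CPM (log2 fold change -2.62 ± 0.47 (SE), adjusted p = 0.00493). MMP2, the gelatinase that MMP14 activates, was at 1752, 2369 and 1386 against 726, 698 and 559 CPM (log2 fold change -1.47 ± 0.24 (SE), adjusted p = 0.00287), and their inhibitor TIMP3 at 1692, 2309 and 1244 against 488, 551 and 536 CPM (log2 fold change -1.74 ± 0.27 (SE), adjusted p = 0.00244). The protease genes and the inhibitor were thus lower together. Of 14 integrins tested, 6 fell and none rose (median -1.08), among them ITGA5, the fibronectin receptor subunit, at 960.1, 863 and 674 against 418, 448 and 334 CPM (log2 fold change -1.06 ± 0.20 (SE), adjusted p = 0.00541). Left-out samples lowered the number that fell to 6 without shNT replicate 3 and without shNT replicate 1 for collagens and matrix, and 2 without shNT replicate 3 and 3 without shNT replicate 1 and without siNT replicate 1 for integrins. Among the metalloproteinases and plasminogen genes the 1 that rose was PLAT, the tissue plasminogen activator (log2 fold change 1.48 ± 0.40 (SE), adjusted p = 0.0232), which did not pass without shNT replicate 1, shNT replicate 2, siNT replicate 1 or siNT replicate 2. FN1, LOX, MMP14, MMP2, TIMP3 and ITGA5 kept an adjusted p under 0.05 with any 1 of the 6 samples left out.

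Of 19 complement and coagulation genes, 7 fell and 1 rose (median -1.10), beside 8.45% and 5.96% of all genes. C3, the central complement protein, was at 1766, 1966 and 1021 CPM in siNT and 232, 442 and 167 CPM in shNT (log2 fold change -2.50 ± 0.47 (SE), adjusted p = 0.00617). CFB, which binds activated C3, was at 242, 1007 and 93.3 against 25.2, 68.2 and 38.1 CPM (log2 fold change -3.35 ± 0.86 (SE), adjusted p = 0.0205). CFB followed the order of CSF3, IL6 and TNF among the siNT replicates. CD59, an inhibitor of the membrane attack complex, was the 1 that rose (log2 fold change 0.68 ± 0.18 (SE), adjusted p = 0.0246). Members that fell were 2 without shNT replicate 3 and without shNT replicate 1 and 4 without siNT replicate 2. C3 kept an adjusted p under 0.05 with any 1 of the 6 samples left out, whereas CFB did not without shNT replicate 3, shNT replicate 1 or siNT replicate 2.

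Genes of the p53 response, lysosome and metal binding made up further groups that were lower in shNT. Of 25 p53 targets, 10 fell, beside 8.45% of all genes, and none rose by edgeR (median -0.70). However, 3 rose without siNT replicate 3, 1 rose by DESeq2 and 3 were higher at an unadjusted p under 0.05. MDM2, which degrades p53, was at 41.6, 27.8 and 37.1 CPM in siNT and 11.03, 11.2 and 16.3 CPM in shNT (log2 fold change -1.47 ± 0.22 (SE), adjusted p = 0.00237). The death receptor FAS was at 55.2, 31.1 and 34.0 against 10.00, 12.6 and 10.3 CPM (log2 fold change -1.87 ± 0.32 (SE), adjusted p = 0.0038). Neither gene overlapped between the groups. Of 34 genes for lysosome and autophagy, 14 fell and none rose by edgeR (median -0.68), with 1 that rose by DESeq2 and without siNT replicate 3 and 1 higher at an unadjusted p under 0.05. CTSD (cathepsin D) was at 4913, 5692 and 3329.6 against 1867, 2019 and 1053 CPM (log2 fold change -1.50 ± 0.29 (SE), adjusted p = 0.00651) and GLB1, the lysosomal galactosidase, at 148, 209 and 124 against 73.9, 84.2 and 63.1 CPM (log2 fold change -1.12 ± 0.22 (SE), adjusted p = 0.00629). Of 6 metallothionein and zinc genes tested, 4 fell, all of them metallothioneins, which bind zinc and copper. MT2A was at 936, 1862 and 609 CPM in siNT and 507, 374 and 462 CPM in shNT (log2 fold change -1.34 ± 0.31 (SE), adjusted p = 0.0126). Metallothioneins are near-identical copies and the split of reads among them is uncertain. The number that fell was 3 without shNT replicate 3 and 6 without shNT replicate 1 for p53 targets, 4 without shNT replicate 3 and 9 without shNT replicate 1, without siNT replicate 1 and without siNT replicate 2 for the lysosome, and 0 without shNT replicate 3 and 2 without siNT replicate 2 for the metal-binding genes. MDM2, FAS, CTSD and GLB1 kept an adjusted p under 0.05 with any 1 of the 6 samples left out, whereas MT2A did not without shNT replicate 3.

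Genes of ribosome biogenesis, DNA replication and mitosis were among those that rose in shNT. Of 28 ribosome biogenesis genes, 19 rose beside 5.96% of all genes, none fell, and the median log2 fold change was 0.92. NHP2, a protein of the particles that modify rRNA, was at 82.9, 129 and 119 CPM in siNT and 233, 221 and 252 CPM in shNT (log2 fold change 1.09 ± 0.19 (SE), adjusted p = 0.0038). Its partner GAR1 was at 12.1, 14.7 and 11.8 against 30.7, 24.1 and 41.7 CPM (log2 fold change 1.32 ± 0.26 (SE), adjusted p = 0.00629), and UTP20, which processes the small subunit, at 14.6, 7.79 and 21.1 against 51.0, 37.6 and 81.3 CPM (log2 fold change 1.97 ± 0.42 (SE), adjusted p = 0.00994). All 3 genes were higher in each shNT sample than in any siNT sample. The 55 cytosolic ribosomal protein genes went the other way where they passed, with 8 that fell, beside 8.45% of all genes. None rose by edgeR or DESeq2 (3 higher at an unadjusted p under 0.05), and the median was -0.25. RPL34 was at 511, 578 and 449 against 257, 212 and 269.7 CPM (log2 fold change -1.06 ± 0.26 (SE), adjusted p = 0.0154). The number of ribosome biogenesis genes that rose was 2 without shNT replicate 3, 9 without shNT replicate 1, 6 without siNT replicate 1, 10 without siNT replicate 2 and 12 without siNT replicate 3. The number of ribosomal protein genes that fell was 0 without shNT replicate 3, 2 without shNT replicate 1 and without shNT replicate 2, 1 without siNT replicate 1 and 3 without siNT replicate 2, and with library totals in place of TMM factors 3 of them rose and 8 fell. NHP2 and GAR1 kept an adjusted p under 0.05 with any 1 of the 6 samples left out, whereas UTP20 and RPL34 did not without shNT replicate 3.

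Of 33 DNA replication and S-phase genes, 13 rose, beside 5.96% of all genes, and none fell. The median log2 fold change was 1.01, and the value was positive for all 33. MCM6, a subunit of the replicative helicase, was at 44.9, 54.6 and 69.9 CPM in siNT and 138, 119 and 107 CPM in shNT (log2 fold change 1.10 ± 0.21 (SE), adjusted p = 0.00565). POLA1, the polymerase that starts each strand, was at 12.1, 9.82 and 17.2 against 30.9, 26.6 and 42.1 CPM (log2 fold change 1.35 ± 0.28 (SE), adjusted p = 0.00813), and UHRF1, which copies DNA methylation, at 17.1, 29.9 and 48.9 against 114, 80.9 and 136 CPM (log2 fold change 1.79 ± 0.37 (SE), adjusted p = 0.00867). The groups did not overlap, and siNT replicate 3 was the siNT sample closest to shNT for each. Left-out samples lowered the number that rose to 3 without shNT replicate 3, 5 without shNT replicate 1, 4 without siNT replicate 1 and 7 without siNT replicate 2. MCM6 and UHRF1 kept an adjusted p under 0.05 with any 1 of the 6 samples left out, whereas POLA1 did not without shNT replicate 3.

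The G2/M and mitotic genes had a higher median, 1.41, but fewer of them passed. Of these 30, 8 rose, beside 5.96% of all genes, and none fell. In all 23 were higher at an unadjusted p under 0.05, DESeq2 called 19, and a fit of the 6 NT controls alone called 16. UBE2C, a ubiquitin conjugase of mitotic exit, was at 39.3, 40.5 and 69.4 CPM in siNT and 134, 129.8 and 215 CPM in shNT (log2 fold change 1.68 ± 0.41 (SE), adjusted p = 0.0167). TPX2, which builds the spindle, was at 118, 71.3 and 168 against 352, 314 and 445 CPM (log2 fold change 1.64 ± 0.42 (SE), adjusted p = 0.0203), and AURKA, the kinase it activates, at 47.2, 32.4 and 88.8 against 159, 134 and 221 CPM (log2 fold change 1.61 ± 0.46 (SE), adjusted p = 0.031). PRC1, which bundles microtubules, was at 72.0, 42.4 and 115 against 222, 184 and 293 CPM (log2 fold change 1.61 ± 0.45 (SE), adjusted p = 0.0275). siNT replicate 2 was lowest for all but UBE2C and siNT replicate 3 was nearest to shNT. The other members were not uniform, since CDK1, the kinase of mitotic entry, was at 84.3, 37.0 and 119.9 CPM in siNT and 52.1, 48.2 and 119 CPM in shNT, with overlapping values. HMMR, TTK and CENPE likewise had negative values that did not pass. Single samples changed the 8 that rose to 0 without shNT replicate 3, without siNT replicate 1 and without siNT replicate 2, 1 without shNT replicate 1 and 17 without siNT replicate 3. UBE2C missed the threshold without shNT replicate 3, siNT replicate 1 or siNT replicate 2 and TPX2, AURKA and PRC1 without shNT replicate 3, shNT replicate 1, siNT replicate 1 or siNT replicate 2.

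The CHR motif, TTTGAA or TTCGAA on either strand, was in 18 of 25 matched G2/M promoters (72.0%) and in 4539 of all promoters (16.6%). Of the 5 matched members that rose, 4 held it. Many mitotic genes carry this motif, so the higher share of the list does not bear on the change in shNT. The promoter of PRC1 (chr15:90994536-90994785, minus strand) is given as an example, with the motif in capitals 20 bases before the start.
PRC1: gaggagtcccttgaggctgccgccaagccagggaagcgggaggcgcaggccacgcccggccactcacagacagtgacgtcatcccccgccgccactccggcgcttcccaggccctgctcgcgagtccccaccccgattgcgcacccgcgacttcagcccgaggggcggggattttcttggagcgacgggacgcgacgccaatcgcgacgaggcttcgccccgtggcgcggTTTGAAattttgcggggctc

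Heat shock chaperones rose in 7 of 18 cases, beside 5.96% of all genes, and fell in none (median 0.68). HSP90AB1, the constitutive HSP90, was at 1127, 1328 and 1387 CPM in siNT and 2885, 2493 and 3486 CPM in shNT (log2 fold change 1.21 ± 0.22 (SE), adjusted p = 0.00502), and HSPD1, the mitochondrial chaperonin, at 330.2, 265 and 341 against 773, 527 and 1017 CPM (log2 fold change 1.31 ± 0.27 (SE), adjusted p = 0.0081). Neither overlapped between the groups. The number that rose was 2 without shNT replicate 3 and 4 without shNT replicate 1 and without siNT replicate 1. HSP90AB1 kept an adjusted p under 0.05 with any 1 of the 6 samples left out, whereas HSPD1 did not without shNT replicate 3.

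**Figure D2:**
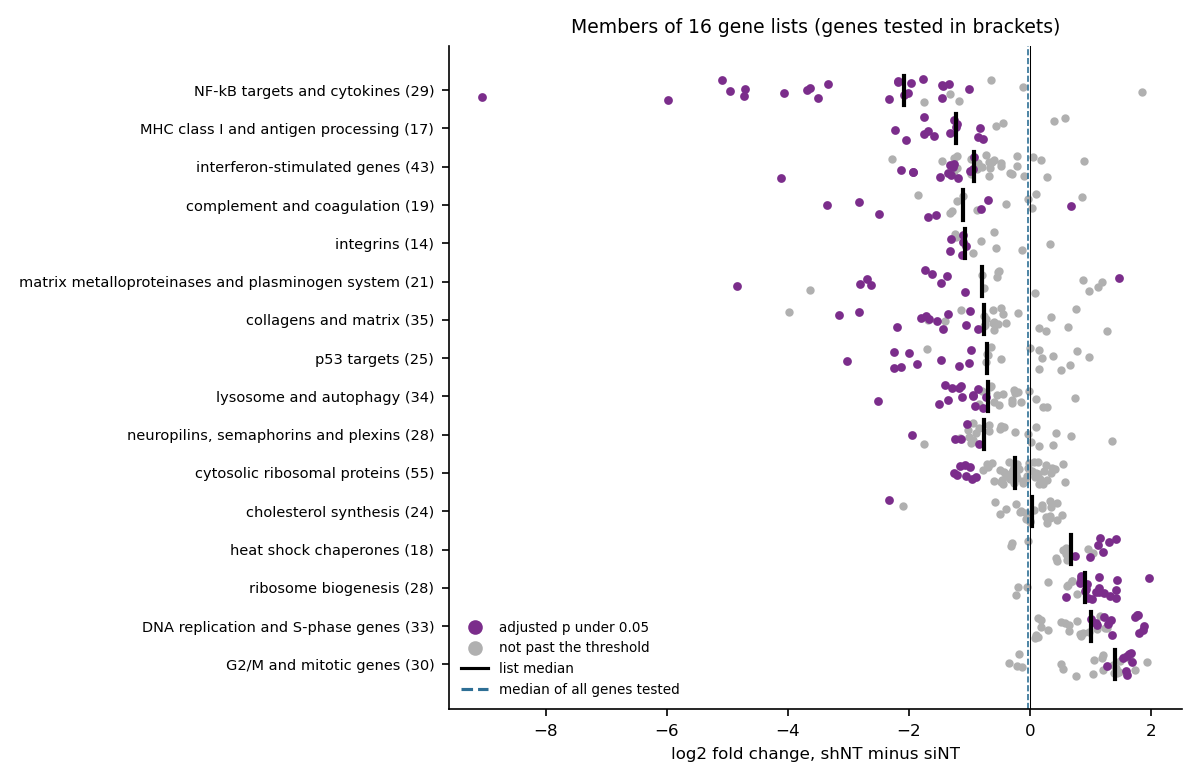
Log2 fold change of shNT minus siNT (x axis) for each tested member of 16 gene lists. Purple points had an adjusted p under 0.05, grey points did not, the black bar is the median of the list and the dashed line that of all 20067 genes (-0.03). The 23 called NF-kB targets and cytokines all lie left of 0, and the called genes of ribosome biogenesis, S phase and G2/M all lie right of it.

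The 12 genes with the largest increase, for which no overlap of the groups was likewise a condition, were mostly low in siNT. RELN (reelin), a secreted matrix glycoprotein, was at 0.202, 0.167 and 0.150 CPM in siNT and 1.75, 2.04 and 11.9 CPM in shNT (log2 fold change 4.90 ± 1.04 (SE), adjusted p = 0.00993). shNT replicate 3 was far above the other shNT samples, which were themselves above all siNT samples. PRRX1, a homeobox factor of mesenchymal cells, was at 3.41, 2.13 and 2.96 CPM in siNT and 18.4, 22.1 and 35.5 CPM in shNT (log2 fold change 3.16 ± 0.38 (SE), adjusted p = 0.00101), with no siNT value above 3.41 CPM. DIO2, which activates thyroid hormone, was at 10.8, 4.59 and 20.3 against 55.7, 58.7 and 175 CPM (log2 fold change 3.02 ± 0.63 (SE), adjusted p = 0.00914). CCBE1, a secreted factor of lymphatic growth, was at 1.19, 0.574 and 2.81 against 26.3, 11.2 and 40.1 CPM (log2 fold change 4.09 ± 0.88 (SE), adjusted p = 0.0103), and CD180, a receptor related to TLR4, at 0.292, 0.0239 and 1.43 against 7.18, 11.1 and 12.0 CPM (log2 fold change 4.13 ± 1.06 (SE), adjusted p = 0.0208). For DIO2 and CCBE1 the highest shNT sample was replicate 3.

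TAGLN (transgelin), an actin-binding protein of contractile cells, was at 1.88, 5.35 and 9.14 CPM in siNT and 36.2, 23.8 and 124 CPM in shNT (log2 fold change 3.49 ± 0.82 (SE), adjusted p = 0.0146), and the smooth muscle actin ACTG2 was at 1.17, 1.15 and 3.38 against 6.13, 5.34 and 32.3 CPM (log2 fold change 2.95 ± 0.87 (SE), adjusted p = 0.0358). Both rose in shNT, with replicate 3 highest. ACTA2, the other smooth muscle actin, fell, from 26.6, 28.7 and 14.8 CPM to 6.98, 10.6 and 6.58 CPM (log2 fold change -1.53 ± 0.43 (SE), adjusted p = 0.0276), and of the 22 actin, SRF target and contractility genes 2 rose and 2 fell, so that the list as a whole did not move in 1 direction. AOX1, RAB3B, CRABP2, LINP1 and C10orf90 completed the 12 genes with the largest increase, with log2 fold changes of 2.98, 2.76, 2.69, 2.63 and 2.62. HGF, a growth factor, and its receptor MET rose as well. They belong to a mixed list of 29 growth factor receptors and ligands, in which 3 rose and 4 fell. The member with the smallest p, IGFBP7, fell (log2 fold change -2.13 ± 0.32 (SE), adjusted p = 0.00237). HGF was at 4.87, 1.51 and 3.51 against 14.2, 21.4 and 18.1 CPM (log2 fold change 2.44 ± 0.45 (SE), adjusted p = 0.00511) and MET at 36.3, 22.3 and 30.0 against 89.8, 61.9 and 142 CPM (log2 fold change 1.73 ± 0.34 (SE), adjusted p = 0.00651). PRRX1, LINP1, C10orf90, HGF and MET kept an adjusted p under 0.05 with any 1 of the 6 samples left out, whereas RELN, DIO2, CCBE1 and AOX1 did not without shNT replicate 3, CD180, ACTG2, RAB3B and CRABP2 without shNT replicate 3, siNT replicate 1 or siNT replicate 2, TAGLN without shNT replicate 3 or siNT replicate 1 and ACTA2 without shNT replicate 3, shNT replicate 1, siNT replicate 1 or siNT replicate 2.

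NRP1 did not pass. Of 28 neuropilins, semaphorins, plexins and VEGF genes tested, 5 fell beside 8.45% of all genes and none rose by edgeR (1 by DESeq2, and 2 higher at an unadjusted p under 0.05), with a median of -0.75. SEMA3C, a ligand of neuropilins, was at 328, 112 and 189 CPM in siNT and 54.9, 53.5 and 55.5 CPM in shNT (log2 fold change -1.94 ± 0.31 (SE), adjusted p = 0.00287). VEGFC, a lymphatic growth factor, was at 53.8, 73.6 and 62.7 against 31.0, 23.7 and 37.9 CPM (log2 fold change -1.04 ± 0.25 (SE), adjusted p = 0.0146). PLXNB2 and PLXNA1, receptors of semaphorins, were at 459, 409 and 359 against 176, 225 and 156 CPM (log2 fold change -1.14 ± 0.24 (SE), adjusted p = 0.00963) and at 609, 599 and 639.7 against 356, 423 and 260.0 CPM (log2 fold change -0.83 ± 0.25 (SE), adjusted p = 0.0374), and PLXNC1 was the fifth. No value of these genes overlapped between the groups. Those that fell were 2 without shNT replicate 3 and without shNT replicate 1 and 3 without siNT replicate 1, 9 with DESeq2 and 3 with library totals. SEMA3C kept an adjusted p under 0.05 with any 1 of the 6 samples left out, whereas VEGFC did not without shNT replicate 1, PLXNB2 without shNT replicate 3, PLXNA1 without shNT replicate 3, shNT replicate 1, siNT replicate 1, siNT replicate 2 or siNT replicate 3 and PLXNC1 without shNT replicate 3, shNT replicate 1, shNT replicate 2, siNT replicate 1 or siNT replicate 3.

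The other lists are set beside 5.96% of all genes that rose and 8.45% that fell. The share that fell was above 8.45% in several lists and below it in others, such as cholesterol synthesis. Those above included AP-1 and immediate early genes (median -0.56) and the unfolded protein and ATF4 response (-0.37). TGF-beta and BMP (-0.66) and Notch and Wnt (-0.26) were also above. Of 24 cholesterol synthesis genes 1 fell (TM7SF2, log2 fold change -2.32 ± 0.49 (SE), adjusted p = 0.00893) and the median was 0.04. Of 13 mitochondrially encoded genes and of 11 G1 cyclins and CDK inhibitors, edgeR and DESeq2 each called 0, with 1 gene in each list at an unadjusted p under 0.05, MT-ND4L and CCND2. Of 18 genes of the RNA interference machinery, 1 was lower at an unadjusted p under 0.05 and 2 rose. These were TSN, a subunit of the C3PO nuclease, at 34.1, 28.7 and 40.5 against 84.9, 67.6 and 99.5 CPM (log2 fold change 1.29 ± 0.22 (SE), adjusted p = 0.00357), and DROSHA, the nuclease of microRNA precursors, at 44.9, 42.8 and 61.2 against 82.9, 73.6 and 77.6 CPM (log2 fold change 0.65 ± 0.20 (SE), adjusted p = 0.0349). Of 26 YAP and TEAD targets 1 fell, the kinase NUAK2 (log2 fold change -1.45 ± 0.39 (SE), adjusted p = 0.0225), and 1 rose by DESeq2 and without siNT replicate 2. Of 35 genes of the unfolded protein and ATF4 response 5 fell, and of 36 AP-1 and immediate early genes 8 fell and 1 rose. The gene that rose was KLF6, at 27.8, 31.3 and 38.5 against 83.9, 68.4 and 116 CPM (log2 fold change 1.46 ± 0.24 (SE), adjusted p = 0.00289). Of the EMT list of 13 genes PRRX1 and VIM rose, whereas ZEB1, a repressor of E-cadherin, was at 26.8, 7.19 and 12.8 against 17.1, 11.6 and 21.8 CPM (log2 fold change 0.11 ± 0.44 (SE), adjusted p = 0.885). Lists that moved both ways or in few members were those of TGF-beta and BMP (1 rose and 5 fell of 25), Notch and Wnt (1 and 6 of 32), growth factor receptors and ligands (3 and 4 of 29), fatty acid and lipid metabolism (1 and 3 of 29), hypoxia and glycolysis (2 and 4 of 32), NRF2 and xenobiotic defence (2 and 3 of 31), replication-dependent histones (3 and 1 of 38), epithelial junctions and keratins (1 and 4 of 29) and breast cancer stem cell genes (2 and 1 of 14). With 1 of the 6 samples left out, the number that fell in these lists, in the same order, was 1 to 5, 1 to 7, 1 to 6, 0 to 4, 2 to 4, 0 to 2, 0 to 1, 1 to 4 and 0 to 1, with the lowest number of each list reached without shNT replicate 3. Those that rose were 0 to 6 for fatty acid and lipid metabolism and 0 to 7 for the histones, highest without siNT replicate 3. Histone genes are near-identical copies and their split of reads is uncertain. The AP-1 genes that fell were 1 without shNT replicate 3, 2 without shNT replicate 1, 3 without shNT replicate 2 and without siNT replicate 2, 4 without siNT replicate 1 and 14 without siNT replicate 3, and those of the ATF4 response were 2 without shNT replicate 3 and 8 without siNT replicate 3. TSN and KLF6 kept an adjusted p under 0.05 with any 1 of the 6 samples left out, whereas TM7SF2 did not without shNT replicate 3, DROSHA without shNT replicate 3, shNT replicate 1, shNT replicate 2, siNT replicate 1 or siNT replicate 2 and VIM without shNT replicate 3, shNT replicate 1, siNT replicate 1, siNT replicate 2 or siNT replicate 3.

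Transcript length and GC content moved weakly with the change. Of 14391 protein-coding genes tested, 14371 had a length in GENCODE 44. Over these genes the Spearman correlation with the log2 fold change was 0.095 for length and -0.10 for GC content. Among the 3598 genes with the shortest transcripts 12.8% fell and 5.56% rose, with a median log2 fold change of -0.12, and among the 3593 with the longest 7.38% fell and 6.90% rose, with a median of 0.06. The median GC content was 46.4% in the genes that rose and 52.1% in those that fell, beside 48.3% in all. The part of length and GC content in the results above was not tested.

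The remaining SUM159PT samples, 11 in which NRP1 was knocked down, hold the same contrast of carriers with targeting sequences, and share no sample with the NT controls. By the sequences given in the study's methods, the siRNA and the shRNA are identical for #5 and differ for #3. NRP1 itself was higher with the shRNA than with the siRNA, by a log2 fold change of 2.16 ± 0.36 (SE) for #5 (adjusted p = 0.00196) and 0.93 ± 0.29 (SE) for #3 (adjusted p = 0.0264), against 0.15 ± 0.29 (SE) between the NT controls, so that these contrasts also differ in the level of NRP1. shNRP1#5 minus siNRP1#5 (3 and 2 samples) passed in 3247 genes (16.2%) and shNRP1#3 minus siNRP1#3 (3 and 3) in 5621 (28.0%). Of the 2890 genes that differed between the NT controls, 672 (23.3% of them and 20.7% of the #5 calls) passed in the same direction for #5, and 1378 (47.7% and 24.5% of the #3 calls) for #3, whereas 53 and 61 passed in the opposite direction. Values had the same sign in 76.7% (#5) and 87.2% (#3) of these 2890 genes, and in 63.3% and 69.0% of all genes. Both knockdown contrasts passed in the same direction in 1020 genes (5.08%), and 380 of these passed in that direction between the NT controls as well (13.1% of the NT calls).

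**Figure D3:**
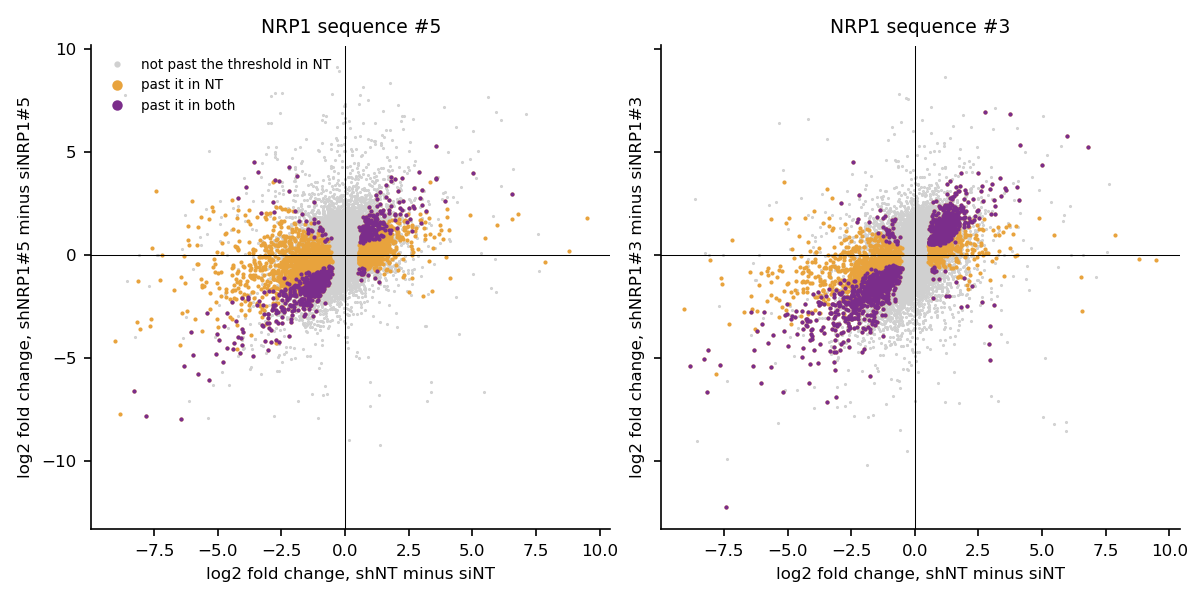
Log2 fold change of shNT minus siNT (x axis) against that of the NRP1 shRNA minus the NRP1 siRNA of the same number (y axis), for #5 (left) and #3 (right) in 20067 genes. Orange points passed in the NT controls and purple points in both contrasts, where 672 (#5) and 1378 (#3) genes had the same direction and 53 and 61 the opposite one.

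The 5 genes that passed in all 3 contrasts with the smallest p-values in the knockdown samples were HLA-DPA1, FNDC4, MALT1, COX7A2 and MAP1LC3A. HLA-DPA1, an MHC class II chain, was at 8.46, 9.68 and 8.67 CPM in siNT and 3.25, 4.25 and 3.73 CPM in shNT (log2 fold change -1.25 ± 0.27 (SE), adjusted p = 0.00993), and its log2 fold change was -2.98 ± 0.34 (SE) for #5 and -3.91 ± 0.30 for #3. MAP1LC3A, a protein of autophagosomes, was at 27.9, 35.0 and 14.9 against 6.30, 7.27 and 3.06 CPM (log2 fold change -2.23 ± 0.37 (SE), adjusted p = 0.00326), with -2.62 ± 0.41 for #5 and -2.95 ± 0.38 for #3. COX7A2, a subunit of cytochrome c oxidase, had the steadiest values, 199, 199.8 and 207 against 111, 108 and 109.7 CPM (log2 fold change -0.88 ± 0.16 (SE), adjusted p = 0.00518), with -1.21 ± 0.18 and -1.21 ± 0.16. MALT1, which activates NF-kB, was the 1 of the 5 that was higher in shRNA samples, at 19.2, 12.6 and 21.7 against 29.8, 25.6 and 39.4 CPM (log2 fold change 0.83 ± 0.22 (SE), adjusted p = 0.0211).

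Groups of genes differed in how far, and in which direction, they moved in the other contrasts. B2M fell in all 3, with -2.46 ± 0.38 (adjusted p = 0.00157) for #5 and -1.20 ± 0.34 (adjusted p = 0.016) for #3. PRRX1 rose in all 3, with 2.14 ± 0.42 (adjusted p = 0.00398) and 2.01 ± 0.36 (adjusted p = 0.000935). IL6 did not pass in either, with -1.64 ± 0.78 (adjusted p = 0.162) and -1.71 ± 0.72 (adjusted p = 0.0881), and TNFAIP3 was at 0.15 ± 0.35 and -0.23 ± 0.31. Of the 29 NF-kB targets and cytokines 6 fell for #5 and 10 for #3, with medians of -0.58 and -1.14, beside 9.19% and 14% of all genes. Of the 30 G2/M genes 23 rose for #3 with a median of 1.81, whereas the median for #5 was 0.39. Of the 28 ribosome biogenesis genes 2 rose and 2 fell for #5 and 11 rose for #3, beside 6.99% and 14% of all genes that rose. Of the 35 genes for collagens and matrix, 8 rose and 1 fell for #5 (median 0.48), and 2 rose and 11 fell for #3 (median -0.43). FN1 was at 0.01 ± 0.34 for #5 and -1.06 ± 0.30 (adjusted p = 0.0171) for #3. The medians for #5 and #3 were 0.22 and -0.29 for integrins and -0.31 and 0.38 for heat shock chaperones. MDM2 fell between the NT controls but rose in both knockdown contrasts, with 1.27 ± 0.25 (adjusted p = 0.00441) and 1.09 ± 0.22 (adjusted p = 0.00217). Whether the change of a gene differed between the NT controls and the knockdown samples was not tested.

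Levels over all 17 SUM159PT samples placed the NT controls among the rest. The level of a list was taken as the median of its members' log2 CPM, each centred on its mean over the 6 NT controls. For NF-kB targets and cytokines it was 0.85, 1.92 and 0.09 in siNT and -0.94, -0.88 and -1.0 in shNT, beside 0.44, 0.40 and 0.43 in siNRP1#3 and -0.49, -0.10 and -0.79 in shNRP1#3. It was 0.09 and -1.19 in siNRP1#5 and -0.91, -0.70 and -1.40 in shNRP1#5, where siNRP1#5 replicate 3, an siRNA sample, lay below all 3 shNT samples. siNT replicate 2 was the highest of the 17 samples and siNT replicate 3 lay below all 3 siNRP1#3 samples. For G2/M genes the level was -0.60, -1.67 and -0.03 in siNT and 0.63, 0.48 and 1.14 in shNT, -0.95, -2.85 and -0.80 in siNRP1#3, 0.29, 0.13 and 0.94 in shNRP1#3, -0.69 and 0.09 in siNRP1#5 and 0.07, -0.07 and 0.51 in shNRP1#5, with siNRP1#3 replicate 2 the lowest of the 17 samples. Among the 6 NT controls the replicate with the highest cytokine level, siNT replicate 2, was the one with the lowest G2/M level.

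**Figure D4:**
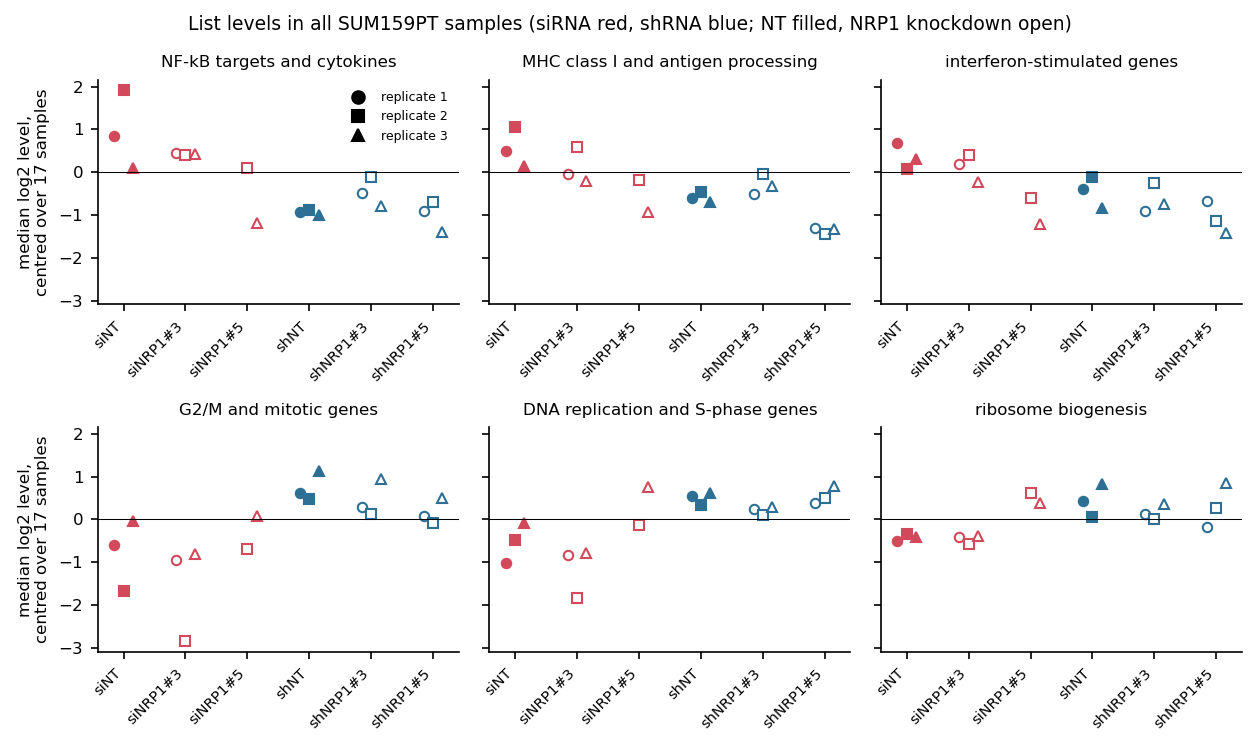
Median log2 level of 6 gene lists (y axis) in the 6 groups of SUM159PT. Each gene was centred on its mean over the 6 NT controls, although the axis label names 17 samples. Each symbol is 1 sample, siRNA groups are red and shRNA groups blue, NT controls are filled and NRP1 knockdown samples open. In all 6 panels the 3 siNT and 3 shNT samples do not overlap, and siNT replicate 2 is the highest sample for NF-kB targets and cytokines.

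The same comparison in the NT controls of MDA-MB-231 and HS578T, also claudin-low lines, served to find where SUM159PT differed. In a fit of the 18 NT controls of the 3 lines, with 20686 genes tested, shNT and siNT differed in 4573 genes of SUM159PT (22.1%), in 707 of MDA-MB-231 (3.42%) and in 5085 of HS578T (24.6%). The change itself differed between SUM159PT and MDA-MB-231 in 1478 genes (7.14%), with the change in SUM159PT above for 728 (3.52%) and below for 750 (3.63%), and between SUM159PT and HS578T in 1133 genes (5.48%), with 577 above (2.79%) and 556 below (2.69%). With size factors of the RLE method the second split became 400 above and 628 below. Without shNT replicate 1, shNT replicate 3 or siNT replicate 1 of SUM159PT, the numbers of differing genes fell to 837, 601 and 668 for MDA-MB-231 and to 617, 584 and 654 for HS578T.

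Of the 4573 calls in SUM159PT, 1648 passed in the same direction in HS578T (36.0%, and 32.4% of the HS578T calls) and 193 in MDA-MB-231 (4.22%, and 27.3% of the MDA-MB-231 calls). In the opposite direction 106 passed in HS578T and 42 in MDA-MB-231. Of the 29 NF-kB targets and cytokines, the fit gave 23 that fell for SUM159PT, 13 for MDA-MB-231 and 6 for HS578T (all genes, 11.5%, 1.58% and 12.8%), with medians of -2.03, -1.26 and -0.65. The change in SUM159PT was below that of MDA-MB-231 for 2 members and above it for 1, and below that of HS578T for 6. Of the 17 MHC class I genes 13 fell and 1 rose in SUM159PT, and 8 fell and 1 rose in HS578T. The median was -0.21 in MDA-MB-231, and the change in SUM159PT was below that of MDA-MB-231 for 4 members and above it for 1. For ribosome biogenesis the change in SUM159PT was above that of MDA-MB-231 for 21 of 28 genes. This held for 12 of 30 G2/M genes, 23 of which rose in SUM159PT in this fit and 4 in HS578T (all genes, 10.6% and 11.8%), while among MDA-MB-231 genes 1.84% rose. For neuropilins, semaphorins and plexins the change was below that of MDA-MB-231 for 11 of 30, and for lysosome genes it was below for 13 of 34 and above for 2. Of 33 S-phase genes 21 rose in SUM159PT and 27 in HS578T.

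FN1 went in opposite directions. In MDA-MB-231 it was at 114, 118 and 235 CPM in siNT and 657, 449 and 530.5 CPM in shNT, a log2 fold change of 1.81, beside -1.77 for SUM159PT in the same fit (difference -3.58 ± 0.40, SE, adjusted p = 0.000229). Neither line had overlapping groups. PRRX1, which rose in SUM159PT, was at 208, 181 and 131 CPM in siNT and 136, 104 and 138 CPM in shNT of HS578T, where its level was high in both groups and the values overlapped (difference 3.64 ± 0.38, SE, adjusted p = 0.000251). In MDA-MB-231 PRRX1 was between 0.791 and 1.61 CPM in all 6 samples.

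**Figure D5:**
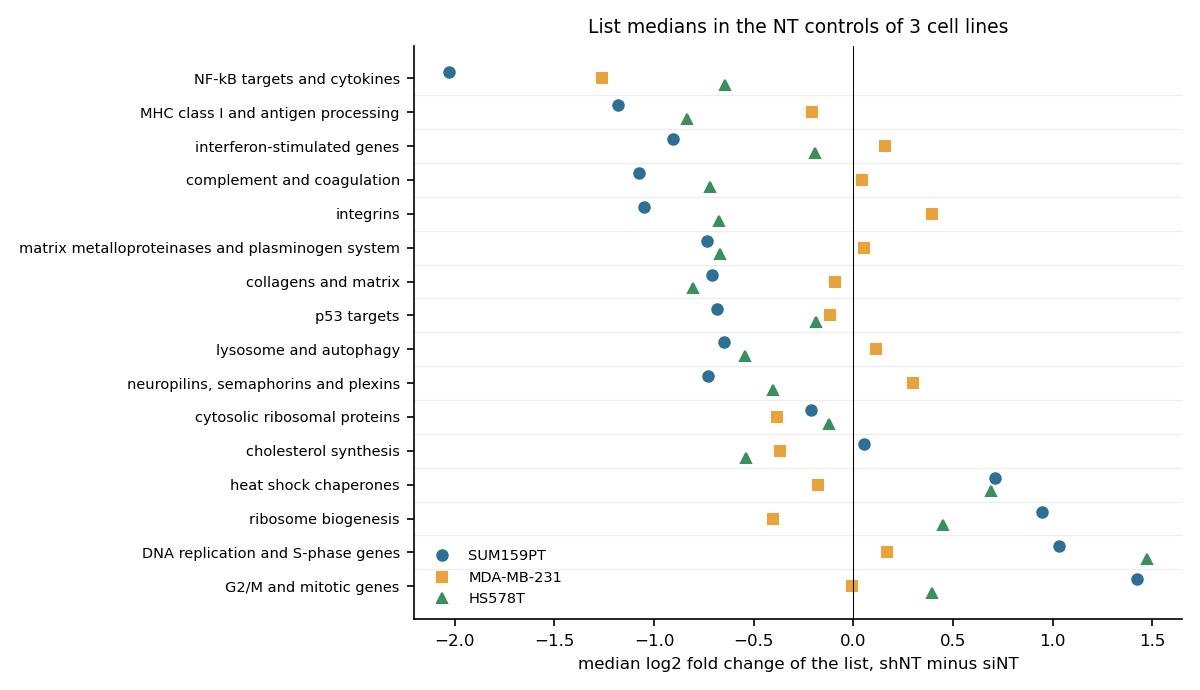
Median log2 fold change of shNT minus siNT (x axis) over the tested members of 16 gene lists in the NT controls of SUM159PT (blue circles), MDA-MB-231 (orange squares) and HS578T (green triangles). The median of NF-kB targets and cytokines is negative in all 3 lines, and that of ribosome biogenesis is 0.95 in SUM159PT, 0.45 in HS578T and -0.40 in MDA-MB-231.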

How the data were processed

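Poly(A) RNA was sequenced as stranded paired-end libraries. The authors checked the reads with FastQC 0.11.9, trimmed them with Trim Galore 0.6.5, aligned them with STAR 2.7.2b to GRCh38 and quantified genes with RSEM 1.3.3. The deposited expected counts per gene were not scaled for depth and were rounded here. The deposited TPM values, scaled by the authors for length and depth, were tabulated but decide no call, and transcript-level tables were not used.

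All 17 SUM159PT samples were fitted with 6 group means (edgeR 4.0.16 in R 4.3.3, with its default filter on low counts, TMM factors and the robust quasi-likelihood fit), since the study ran no such test, and shNT was compared with siNT. Benjamini-Hochberg adjustment ran over all genes tested and the threshold was 0.05. Differences between cell lines were interaction contrasts in a fit of the 18 NT controls. CPM were computed with TMM factors, promoters came from RefSeq (GRCh38.p14) and transcript lengths from the longest transcript in GENCODE 44. Replicates differed by at least 47.3 in chi-square per degree of freedom, so that none was treated as a copy. The script was tested on simulated data.

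Gene lists and named genes were chosen with earlier results of these data known. Named genes were the 12 with the largest change in each direction among genes that passed, with at least 5 CPM in the higher group and no overlap of samples, up to 5 members with the smallest p of each list, NRP1, the claudin-low markers, up to 5 genes per difference between lines, and 5 shared with the knockdown samples. IL11, NFKB1, CDK1, BIRC3, TNFAIP2, CCL2, CXCL3, PLAT, CD59, HMMR, TTK, CENPE, the tubulins, TCP1, the nucleoporins, the DNA methyltransferases and S100A9 were named after their values were seen. Alternatives were DESeq2 1.42.0, other size factors and filters, the 6 NT controls alone, a replicate block and leaving out each replicate. Data handling and figures used Python 3.11.15 with numpy 2.4.6, pandas 2.3.3 and matplotlib 3.10.9. Because reads carry no molecular identifiers, counting errors were not separated from PCR duplicates.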

Additional observations from a re-analysis of the deposited data

Results flagged for a closer look

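The change from siNT to shNT differed between SUM159PT and MDA-MB-231 in 1478 genes and between SUM159PT and HS578T in 1133 genes (interaction contrasts of edgeR, adjusted p under 0.05). These were picked out because 2 cell lines gave different changes under the same contrast, and the genes below are those with the smallest p-values.

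Against MDA-MB-231, the difference was -3.58 log2 units for FN1 (fibronectin), -3.02 for the lysophosphatidic acid receptor LPAR1, -3.34 for the collagen chain COL8A1, -2.32 for the pentraxin receptor NPTXR and 3.62 for PRRX1, each with an adjusted p of 0.000229. LPAR1 was at 40.3, 48.9 and 35.2 CPM in siNT and 20.5, 22.3 and 13.5 CPM in shNT of SUM159PT, and at 6.96, 7.91 and 12.9 against 36.1, 35.9 and 29.7 CPM in MDA-MB-231. COL8A1 was at 334, 349.9 and 220.5 against 121, 131 and 67.4 CPM in SUM159PT and 29.1, 25.1 and 43.8 against 131, 117 and 102 CPM in MDA-MB-231. FN1, LPAR1 and COL8A1 thus fell in the first line and rose in the second.

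Against HS578T, the difference was 3.64 for PRRX1, 5.58 for the glycosyltransferase GALNT15, 2.82 for STRIP2, -2.95 for the keratin KRT18 and -2.47 for the lysosomal phosphatase ACP2, each with an adjusted p of 0.000251. KRT18 was at 64.6, 97.5 and 116 CPM in siNT and 1404, 990.3 and 662 CPM in shNT of HS578T, beside 409.8, 419 and 510.2 and 649, 592 and 667 CPM in SUM159PT. GALNT15 was at 2.49, 2.28 and 1.73 against 7.19, 16.8 and 14.6 CPM in SUM159PT and 48.4, 45.2 and 48.1 against 7.37, 4.59 and 5.47 CPM in HS578T, where it fell.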

How the results depend on the processing

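The 2890 genes called between shNT and siNT became 4219 with DESeq2, 2862 with RLE size factors and 2830 with library totals (1426 higher and 1404 lower). They became 3929 without a filter, 2913 with 1 CPM in 3 samples and 2207 in a fit of the 6 NT controls. Of the 2890 genes, 0 changed direction in any alternative. With 1 of the 6 samples left out, the number of calls lay between 463 and 3398, of those that rose between 153 and 1409, and of those that fell between 310 and 1989. For the difference from MDA-MB-231 these ranges were 601 to 2119, 259 to 1143 above and 322 to 976 below, and for HS578T 584 to 1281, 278 to 690 above and 272 to 591 below.

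The difference from MDA-MB-231 (1478) was called in 2469 genes with DESeq2 (1106 above, 1363 below) and in 2403 without a filter (1321 below). That from HS578T (1133) was called in 1854 genes with DESeq2 (1051 below), and without a filter 889 were below. With replicate number as a block, 4359 genes were called between shNT and siNT (1959 higher), and 358 genes were below in the difference from HS578T. Deviations of same-numbered siNT and shNT samples correlated at 0.0909, 0.298 and 0.309, the first of them under 0.1, so the number was not taken to pair the samples. Each sample correlated best with its own number, a hint from the data and not from the design.

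Without a filter more members of some lists passed, with 24 interferon-stimulated genes, 9 sensors, 11 complement genes, 11 genes of the semaphorin list and 12 of the ATF4 response that fell, and 24 G2/M and 22 S-phase genes that rose. With the 6 NT controls alone 5 AP-1 genes fell.

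Of 166 named genes past the threshold, 166 stayed past it with DESeq2, RLE size factors and the replicate block, 153 with the 6 NT controls alone and 66 to 158 with a sample left out. Among named genes, signs changed only for those that did not pass. ERBB2 (-0.03) was at 0.0532 with library totals and 0.00321 without a filter, and CLDN7 at 0.0291 with library totals. With a sample left out ERBB2 lay between -0.144 and 0.0860, CLDN7 between -0.582 and 0.41, ZEB1 between -0.26 and 0.755, NRP1 between -0.0683 and 0.290 and SNAI1 between -0.367 and 0.00808. Each fit with 1 sample left out has fewer degrees of freedom, and calls ranged from 463 without shNT replicate 3 to 3398 without siNT replicate 3. The causes of this range were not tested. Depth limits genes near 0 CPM in 1 group, whose folds are set by the prior count.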

Other observations

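Further groups were listed after the values had been seen and are given with no test of the group. Of 11 tubulin genes, the subunits of microtubules, 8 rose beside 5.96% of all genes and none fell (median 1.52, all genes -0.03). TUBB was at 1373, 1279 and 2485 CPM in siNT and 4621, 4127 and 5746 CPM in shNT (log2 fold change 1.50 ± 0.35 (SE), adjusted p = 0.0137), and TUBB3, the neuronal form, was at 58.4, 68.3 and 187 against 449, 408 and 770.0 CPM (log2 fold change 2.37 ± 0.49 (SE), adjusted p = 0.00857). In both genes siNT replicate 3 was the siNT sample nearest to shNT. The CCT chaperonin folds tubulin and actin, and 6 of its 8 subunits rose (median 0.96), such as TCP1 at 139, 132 and 198 against 405, 339.7 and 499 CPM (log2 fold change 1.41 ± 0.22 (SE), adjusted p = 0.00237). Tubulin genes are similar in sequence and the split of reads among them is uncertain. The number that rose was 0 without shNT replicate 3, 4 without shNT replicate 1 and 2 without siNT replicate 1 and without siNT replicate 2 for tubulins and 2 without shNT replicate 3 and 3 without siNT replicate 2 for the chaperonin.

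Of 20 nucleoporins, which build the nuclear pore, 11 rose and 1 fell (median 0.81). The 1 that fell was NUP210, at 92.5, 95.6 and 63.2 against 32.3, 41.1 and 25.3 CPM (log2 fold change -1.35 ± 0.28 (SE), adjusted p = 0.00753), whereas NUP205 was at 64.9, 45.7 and 78.1 against 138, 133 and 174 CPM (log2 fold change 1.24 ± 0.26 (SE), adjusted p = 0.00915). The number that rose was 0 without shNT replicate 3, 5 without shNT replicate 1, 4 without siNT replicate 1 and 2 without siNT replicate 2. DNMT3B, a DNA methyltransferase, was at 1.97, 1.67 and 3.88 CPM in siNT and 10.2, 9.83 and 11.8 CPM in shNT (log2 fold change 2.08 ± 0.41 (SE), adjusted p = 0.00651), and DNMT1 and UHRF1 rose with it, while DNMT3A and the 3 TET genes did not pass (1 of these 4 was lower at an unadjusted p under 0.05). Of 20 tRNA synthetases 4 rose, of 14 subunits of the 20S proteasome 2 fell (1 rose by DESeq2), and of 12 S100 genes 2 rose and 3 fell. Among these S100A8 and S100A9, which form calprotectin, fell by more than any other member that passed. S100A9 was at 409, 1752 and 149 CPM in siNT and 19.2, 46.2 and 34.2 CPM in shNT (log2 fold change -4.54 ± 1.20 (SE), adjusted p = 0.023).

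Of 4558 lncRNA genes tested, 127 rose (2.79%) and 263 fell (5.77%), beside 7.19% and 9.59% of 14391 protein-coding genes.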
